A study of Homo sapiens with 6 samples.

Results

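The 6 genes described here belong to the aryl hydrocarbon receptor (AHR) pathway, namely AHR, ARNT, AHRR, TIPARP, CYP1A1 and CYP1B1. They were taken by gene symbol, and each symbol matched a single row among the 58735 genes of the deposited tables. The samples were cultures of MDA-MB-231 cells, a human triple-negative breast cancer (TNBC) cell line labelled wild type, treated for 24 h with vehicle (3 samples) or with *Salvia chinensis* Benth (SCH) at 100 mg/l (3 samples). SCH was an extract of the herb in boiling water that was concentrated and freeze-dried. The study gave its doses as weights of raw herb, and the labels do not say whether theirs is such a weight. They call the 3 samples of a group biological repeats. Poly-T purified mRNA was sequenced to total counts on genes of 20291379, 18714240 and 18334857 in the vehicle-treated samples and of 16836369, 17979434 and 18414924 in the SCH-treated samples. A single cell line, dose and time point were sampled, and the sources used here do not name the vehicle.

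AHR is a transcription factor of the bHLH-PAS family that rests in the cytosol in a complex with the chaperone HSP90 and the co-chaperone p23. Ligands such as dioxins, plant flavonoids and tryptophan metabolites send it to the nucleus, where it pairs with ARNT and binds response elements with the core GCGTG. CYP1A1 and CYP1B1, cytochrome P450 enzymes that oxidise polycyclic aromatic compounds and estrogens, are its classical targets. AHRR and TIPARP are also induced by AHR and then restrain it, AHRR as a competitor for ARNT and TIPARP as an enzyme that ADP-ribosylates the receptor.

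The cell type was checked first. ESR1 (the estrogen receptor) had 12 counts over the 3 vehicle-treated samples and PGR (the progesterone receptor) had 0, while ERBB2 was measured at 6.67 ± 0.199 FPKM (fragments normalised to gene length and library size, SD, n = 3). CDH1, the epithelial cadherin, had 14 counts over the same samples. VIM and AXL, both mesenchymal markers, were at 263 ± 4.45 and 293 ± 7.40 FPKM (SD, n = 3). The other epithelial markers were not as low as CDH1, with means of 128 FPKM for KRT8, 129 for KRT18, 53.2 for KRT19 and 6.53 for EPCAM. Of the other mesenchymal markers CD44 was at 96.6, ZEB1 at 6.34 and CDH2 at 0.519 FPKM. After SCH 3 of the 5 mesenchymal markers fell and none rose, of 4 epithelial markers tested 3 fell and 1 rose, and of 3 receptors and luminal factors tested FOXA1 (1.16) and ERBB2 (0.29) rose and GATA3 (-0.79) fell on the log2 scale, where 58.7% of all tested genes changed. Markers of other cell types (PTPRC, PECAM1, ALB and LUM) summed to 0.338, 0.448 and 0.383 FPKM in the vehicle-treated samples and to 0.140, 0.223 and 0.228 FPKM in the SCH-treated samples. PTPRC was the most abundant of them after vehicle and PECAM1 after SCH, ALB and LUM had 6 and 2 counts over the vehicle-treated samples, and their part in the results below was not tested.

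After 24 h of SCH, the transcripts of the receptor, its partner and 2 of its 4 targets were moderately higher, and CYP1A1 was not among them. The filter on low counts left 14736 genes, all 6 among them, and 4 of the 6 (66.7%) changed, meaning a Benjamini-Hochberg adjusted p under 0.05 in the quasi-likelihood test of edgeR. All 4 rose, AHR by 1.16-fold, ARNT by 1.39-fold, CYP1B1 by 1.32-fold and TIPARP by 1.11-fold. AHRR and CYP1A1 had fold changes of 0.697 and 0.862, with neither past the threshold. SCH changed 58.7% of all tested genes, raising 29.3% and lowering 29.4%, so a changed gene was common in this comparison and 4 of 6 is near that background. Of the changed genes 49.9% rose, while 45.6% did with upper quartile normalization and 62.6% when the libraries were scaled by size only, a setting that moved the median change over all tested genes to 0.099 (log2). With library size only the same 4 of the 6 genes rose, while with upper quartile normalization 3 rose, without TIPARP, and CYP1A1 fell, and without SCH replicate 3 the rise of TIPARP was not past the threshold. None of the 6 changed by 1 or more on the log2 scale, as 8.77% of all tested genes did. CPM here means counts scaled to library size and to the TMM normalization factors of edgeR. These factors were 0.961 to 0.971 for the vehicle-treated samples and 1.034 to 1.038 for the SCH-treated samples. In CPM the groups did not overlap for 5 of the 6 genes, all but AHRR, against 62.4% of all tested genes. Scaled to library size only, the groups overlapped for CYP1A1 as well. The median log2 fold change was 0.19 over the 6 genes and -0.0034 over all tested genes. These are cultures measured in bulk, where a change in the share of cells that express a gene and a change in RNA per cell cannot be told apart.

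**Figure D1:**
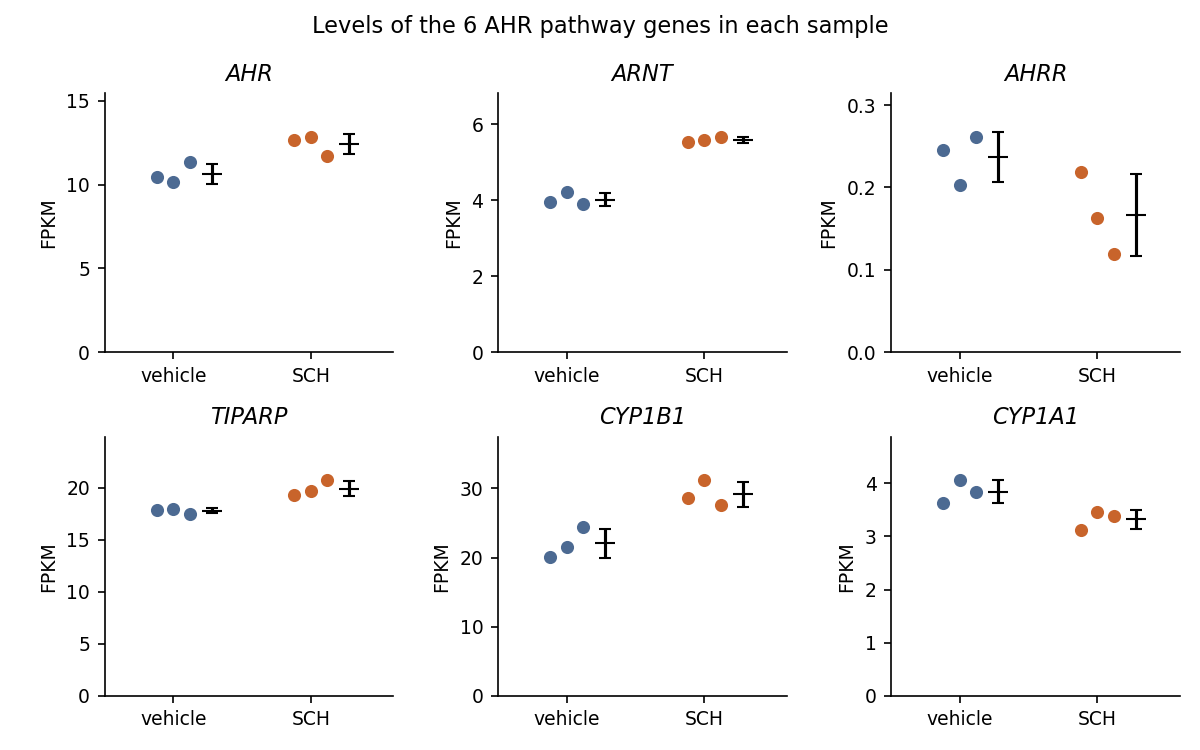
Level of each AHR pathway gene in FPKM (vertical axes, each from 0) in the 3 vehicle-treated (blue) and the 3 SCH-treated (orange) samples, 1 point per sample, with the mean and SD in black. The groups lie apart in 5 panels, with SCH higher for AHR, ARNT, TIPARP and CYP1B1 and lower for CYP1A1, and overlap for AHRR.

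Per length, CYP1B1 was the most abundant of the 6 genes after vehicle, with 22.0 ± 2.17 FPKM (SD, n = 3), above 84.0% of all tested genes. TIPARP followed with 17.8 ± 0.239 FPKM, then AHR with 10.6 ± 0.609, ARNT with 4.02 ± 0.166 and CYP1A1 with 3.85 ± 0.213 FPKM. AHRR was far lower, at 0.237 ± 0.0300 FPKM, above only 5.86% of tested genes, whose median was 4.53 FPKM. Neighbours in this order did not overlap between samples, except for ARNT and CYP1A1 after vehicle, where ARNT was nonetheless slightly higher within each sample. After SCH all neighbours were apart, with ARNT at 1.68 times the FPKM of CYP1A1. The FPKM of CYP1B1 was 5.73 ± 0.545 times that of CYP1A1 after vehicle (SD, n = 3).

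AHR (ENSG00000106546), the receptor itself, is annotated on chromosome 7 of GRCh38 from 16916359 to 17346152 on the plus strand. It had 10.5, 10.1 and 11.3 FPKM in the vehicle-treated samples and 12.6, 12.9 and 11.7 FPKM in the SCH-treated samples. The lowest SCH-treated sample was just above the highest vehicle-treated sample, so the groups were apart by a small margin. The change was 0.21 on the log2 scale (standard error, SE, 0.057, edgeR adjusted p = 0.00266), and 63.1% of all tested genes had a larger change in either direction. The exact two-sided permutation test on log2 CPM gave p = 0.1, the smallest that 3 samples against 3 allow, as it did for the other genes whose groups were apart.

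The annotated span of AHR, 429794 bases, is much longer than its main transcription unit. RefSeq places its start site at 17298652, which is 382293 bases after the first base of the deposited gene model, and 1450 of the 8081 exonic bases of the model (17.9%) lie before that site. In this model 2373 exonic bases are shared with AC019117.2, a gene of the same strand listed at 0 counts in every sample, and 270 with the antisense gene AC073332.1, which had 12 to 37 counts. The FPKM of AHR divides by all 8081 bases, and the vehicle mean would be 13.0 FPKM over the exonic bases from the RefSeq start onward if every count came from those. Of the 299 tested genes whose annotated span is over 400 kb, 26 rose and 224 fell, and AHR was one of those that rose. AHR is in this class by its annotated span only, since it covers 47501 bases from the RefSeq start to its end.

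ARNT (ENSG00000143437), the nuclear partner of AHR and also of the hypoxia-inducible factors, lies on chromosome 1 from 150809705 to 150876768 on the minus strand. It was measured at 3.95, 4.21 and 3.90 FPKM after vehicle and at 5.53, 5.57 and 5.68 FPKM after SCH. The 3 SCH-treated samples differed little from each other and were all well above the vehicle-treated samples. Its rise was the largest of the 6 genes, with a log2 fold change of 0.47 (SE 0.069, edgeR adjusted p = 3.45e-06). Without vehicle replicate 3 CYP1B1 rose more, by 0.48 against 0.45 for ARNT. None of the exonic bases of ARNT lies in an exon of another gene. Since ARNT rose more than AHR, the ratio of AHR to ARNT in FPKM went from 2.65 ± 0.246 to 2.22 ± 0.135 (SD, n = 3 each), with the groups apart, a ratio chosen after the values were seen and given as a description.

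The response-element core was searched in the RefSeq promoters (GRCh38.p14, 250 bases before to 50 after each start site), to show what these targets carry close to their start. The letters GCGTG were searched on both strands, as was the longer TNGCGTG, which contains them. The core was present in 36.5% of all 35116 promoter windows and the longer form in 5.51%, so a match is a common feature and describes the sequence only. For 5 of the 6 genes a promoter was in the table, and the entry for CYP1B1 was missing. CYP1A1 had 1 match, TIPARP 2 in the first of its 3 promoters, AHR 1, ARNT 0 and AHRR 1 and 2 in its 2 promoters, of which 1 was the longer form. The matches of the AHR targets that lay whole in the window with their flanks are given 5′ to 3′ on the strand that reads GCGTG, which is in capitals.
CYP1A1 at chr15:74725569-74725597, minus strand: ccagggaaggagGCGTGgccacacgtaca
TIPARP at chr3:156674370-156674398, minus strand: tcccgcgaggggGCGTGtcctttctcgcg
TIPARP at chr3:156674436-156674464, minus strand: ccccctgcgcgcGCGTGcgcgttcgttcg
AHRR at chr5:321672-321700, plus strand, the longer form: ggcgggcggctcGCGTGccggggtggggc
AHRR at chr5:322556-322584, plus strand: gcagaagggtggGCGTGtgcgcgcgttct

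TIPARP (ENSG00000163659), also a member of the PARP family, lies on chromosome 3 from 156673235 to 156706770. It had 17.9, 17.9 and 17.5 FPKM after vehicle and 19.3, 19.7 and 20.7 FPKM after SCH. The vehicle-treated samples were almost equal, and each SCH-treated sample lay above them. The log2 fold change was 0.16 (SE 0.053, edgeR adjusted p = 0.0146), the smallest of the 4 rises. Without SCH replicate 3 it was 0.14 (adjusted p = 0.0659), with upper quartile normalization 0.12 (adjusted p = 0.0505) and with library size only 0.26 (adjusted p = 1.96e-04), so its call rested on that sample and on the scaling. TIPARP-AS1, which shares 37 exonic bases with it on the opposite strand, had 2 to 10 counts.

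AHRR (ENSG00000063438), the repressor, lies on chromosome 5 from 304176 to 438291. It had the fewest counts of the 6 genes, 38, 29 and 37 after vehicle and 30, 24 and 18 after SCH. The highest SCH-treated sample lay among the vehicle-treated samples, so that the groups overlapped. Its log2 fold change of -0.52 had an SE of 0.27 (edgeR adjusted p = 0.107) and a 95% interval from -1.08 to 0.045. At this depth a fall to 0.472-fold and a rise to 1.03-fold both lay within the interval. Without SCH replicate 1, the highest of its group, the log2 fold change was -0.74 (adjusted p = 0.0462). It was -0.32 (adjusted p = 0.381) without SCH replicate 3 and shrank to -0.085 on log2(FPKM + 1). PDCD6, which shares 244 of the exonic bases of AHRR on the same strand, had 1419 to 1613 counts and a log2 fold change of -0.049 (adjusted p = 0.458).

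CYP1B1 (ENSG00000138061), the P450 of extrahepatic tissues, lies on chromosome 2 from 38066973 to 38109902 on the minus strand. It had 20.1, 21.6 and 24.4 FPKM after vehicle and 28.6, 31.2 and 27.7 FPKM after SCH. The vehicle-treated samples were spread more widely than for the other raised genes, but every SCH-treated sample was above all of them. Its log2 fold change was 0.40 (SE 0.062, edgeR adjusted p = 8.17e-06). Of its 6014 exonic bases, 13.0% lie in exons of other genes, most of them in CYP1B1-AS1 on the opposite strand. The library kit does not mark strand, so reads of the 2 genes cannot be told apart where they overlap. CYP1B1-AS1 had 12 to 30 counts after vehicle and 23 to 42 after SCH, against 2411 to 2702 and 3077 to 3602 counts of CYP1B1. RMDN2, which also shares exonic bases with it on the opposite strand, fell from 65 to 86 counts to 31 to 43 counts (log2 fold change -0.92, adjusted p = 5.91e-04), the direction opposite to that of CYP1B1. RMDN2-AS1, with 69 shared bases, had 1 to 4 counts.

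CYP1A1 (ENSG00000140465), the target most often used as a readout of AHR activity, lies on chromosome 15 from 74719542 to 74725610 on the minus strand and shares no exonic base with another gene. It had 252, 259 and 243 counts after vehicle and 192, 228 and 229 after SCH. In FPKM these were 3.64, 4.06 and 3.84 after vehicle and 3.12, 3.46 and 3.39 after SCH. Every SCH-treated sample thus lay below every vehicle-treated sample in FPKM, by a narrow margin. This separation depended on the scaling. With counts divided by the library total only, SCH replicates 2 and 3 lay above vehicle replicate 1, so the groups overlapped. The log2 fold change was -0.21 (SE 0.10, edgeR unadjusted p = 0.0419 and adjusted p = 0.0688), not past the threshold. Its 95% interval, unadjusted, ran from -0.42 to -0.0086, that is from 0.747-fold to 0.994-fold. With upper quartile normalization the value was -0.25 (adjusted p = 0.0385), and with library size only -0.11 (adjusted p = 0.346).

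**Figure D2:**
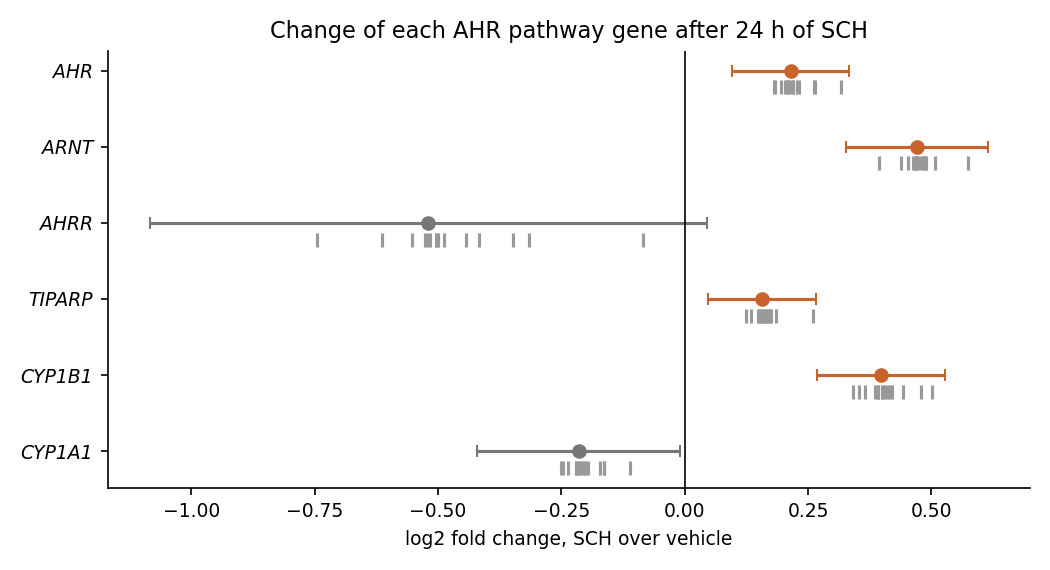
Log2 fold change of each AHR pathway gene (horizontal axis, SCH over vehicle). Points are edgeR estimates with 95% intervals, orange where the adjusted p was under 0.05 and grey where it was not, and the ticks under each point are the values under the 15 alternative settings. AHR, ARNT, TIPARP and CYP1B1 lie above 0 and CYP1A1 and AHRR below 0 in every setting.

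The 2 P450 genes were also compared as a ratio, chosen after the values were seen and so given as a description. The ratio of CYP1B1 to CYP1A1 in FPKM was 5.53, 5.32 and 6.35 in the vehicle-treated samples and 9.15, 9.02 and 8.16 in the SCH-treated samples. No SCH-treated sample came near the vehicle-treated ones, and the log2 ratio differed by 0.62, although the change of CYP1A1 on its own was not past the threshold. The ratio of TIPARP to CYP1A1, also chosen after the values were seen, was 4.63 ± 0.256 after vehicle and 5.99 ± 0.271 after SCH (SD, n = 3 each), a smaller difference of 0.37 on the log2 scale. Such ratios within a sample do not depend on the scaling between libraries.

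For each raised gene, the 2 tested protein-coding genes with the most similar course over the 6 samples were found by Euclidean distance of log2 CPM centred on the gene's mean, among 12417 genes. For AHR these were TPR and OSMR, at distances of 0.054 and 0.055 against a median of 0.52. For ARNT they were CSRP1 (0.044) and NRBP1 (0.059), for CYP1B1 STK3 (0.075) and BMPR2 (0.083), and for TIPARP DPM2 (0.051) and DAP3 (0.052). These 6 points share their libraries, and with 2 groups the distance mostly reflects the size of the change.

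The genes around AHR were followed with 6 lists of 68 genes in all, of which 54 were tested. Of these 25 rose and 12 fell (68.5% changed, against 58.7% of all tested genes), with a median log2 fold change of 0.15. With library size only 31 rose and 11 fell, and with upper quartile normalization 20 rose and 14 fell, so the balance of rises and falls depended on the scaling.

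Of the cytosolic complex 3 genes were followed, of which 2 fell and 1 rose. HSP90AB1, the constitutive form of HSP90, fell from 1017, 1004 and 966 FPKM after vehicle to 765, 747 and 774 FPKM after SCH (log2 fold change -0.39, SE 0.044, edgeR adjusted p = 6.58e-08). PTGES3, which encodes p23, fell by 0.26 on the log2 scale (adjusted p = 7.08e-05). HSP90AA1, the inducible form of HSP90, rose by 0.15 (adjusted p = 0.0125). The rise of HSP90AA1 was not past the threshold with upper quartile normalization, on log2(FPKM + 1), without vehicle replicate 2 or without SCH replicate 3. Of 5 genes that act in the turnover of the receptor, TBL3 (-0.29) and CUL4B (-0.18) fell and RBX1 rose (0.16). DDB1 had a log2 fold change of -0.087 and STUB1, the ligase CHIP, of -0.12, neither past the threshold. CUL4B was not past it with library size only (-0.075) or without SCH replicate 1 (-0.13), nor RBX1 with upper quartile normalization (0.13), without vehicle replicate 2 (0.14) or without SCH replicate 2 (0.16). DDB1 passed it with upper quartile normalization (-0.12) and STUB1 without vehicle replicate 3 (-0.22), while STUB1 was at -0.033 without vehicle replicate 2 and at -0.015 with library size only.

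Among 16 other genes of the bHLH-PAS family, 12 were tested, 6 rose and 2 fell, with a median log2 fold change of 0.16. EPAS1, the hypoxia-inducible factor HIF-2α and like AHR a partner of ARNT, rose from 5.90, 5.95 and 5.99 FPKM to 11.4, 11.1 and 9.66 FPKM, a log2 fold change of 0.85 (SE 0.065, edgeR adjusted p = 1.14e-10). HIF1A, the third such partner, rose by 0.34 on the log2 scale (adjusted p = 2.18e-05). ARNT2, the paralog of ARNT best known from neurons, moved against it and fell from 4.75, 5.40 and 5.33 FPKM to 3.07, 2.90 and 2.64 FPKM (log2 fold change -0.85, adjusted p = 1.85e-09). After vehicle ARNT2 was thus at a higher FPKM than ARNT in every sample, and after SCH at a lower FPKM in every sample. NPAS2, a circadian factor, fell by 0.87 and the coactivator gene NCOA3 rose by 0.35. CLOCK (0.073) and NCOA2 (-0.013) were not past the threshold, though CLOCK passed it with library size only (0.18) and without vehicle replicate 3 (0.17) and was at 0.022 without vehicle replicate 2. NPAS3, NPAS4, HIF3A and SIM1 were too low to test, with 27 counts of NPAS3 over the vehicle-treated samples and 0 after SCH.

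All 12 genes of coregulators that work with AHR were tested, of which 7 rose and 2 fell, with a median of 0.17. The number that rose was 4 without SCH replicate 1 and 4 on log2(FPKM + 1) and on log2(FPKM + 0.1). RELB, an NF-kB subunit that can also pair with AHR, had the largest change, from 12.4 ± 1.29 to 31.9 ± 1.33 FPKM (SD, n = 3 each, log2 fold change 1.36, SE 0.067, edgeR adjusted p = 6.15e-14). NRIP1 (0.56), a corepressor of nuclear receptors, EP300 (0.37), a histone acetyltransferase, and RELA (0.29) rose as well. SMARCA4, the ATPase of a chromatin remodelling complex, fell by 0.36. MED1 (0.045) and NCOR1 (-0.082) were not past the threshold, though MED1 passed it with library size only (0.15). Without vehicle replicate 3 NCOR1 was at -0.050.

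Of 22 other genes known to respond to AHR in some cell type, 16 were tested, 8 rose and 3 fell, with a median of 0.27. MMP1, an interstitial collagenase, rose from 24.4, 24.8 and 23.8 FPKM to 95.6, 98.9 and 96.3 FPKM (log2 fold change 1.99, SE 0.053, edgeR adjusted p = 1.38e-18). NEDD9, a scaffold protein of focal adhesions, rose from low levels of 0.191, 0.156 and 0.178 FPKM to 0.755, 0.850 and 0.869 FPKM (log2 fold change 2.22, SE 0.16). On log2(FPKM + 1) the rise of NEDD9 was 0.63. SERPINB2, which inhibits plasminogen activators, and IL1B, an inflammatory cytokine, rose by 0.78 and 0.72. SLC7A5, an amino acid transporter that carries tryptophan, fell by 0.67. EREG (0.037) and IL6 (0.20) were not past the threshold, though IL6 passed it with library size only (0.30), without vehicle replicate 2 (0.25) and without SCH replicate 1 (0.28), and was at 0.13 without SCH replicate 2. Several of these genes, MMP1, IL1B and IL6 among them, are also known targets of NF-kB or AP-1, and NQO1 is one of NRF2, so that the list is not specific to AHR. NQO1, chosen after its values were seen, rose from 58.7 ± 1.77 to 77.0 ± 0.508 FPKM (SD, n = 3 each), or by 0.39 on the log2 scale (adjusted p = 2.22e-07). CYP1A2, the hepatic neighbour of CYP1A1, had 0 counts in every sample, as did UGT1A1, UGT1A6, GSTA1 and GSTA2. UGT1A1 and UGT1A6 share exons with other genes of their locus, to which reads cannot be assigned with certainty.

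Of 10 genes for enzymes that turn tryptophan into AHR ligands or their precursors, 6 were tested. IDO1, IL4I1 and KMO had 14, 11 and 4 counts over the vehicle-treated samples and 18, 21 and 15 over the SCH-treated samples, and IDO2 had 0 in both. KYAT1, a kynurenine aminotransferase, fell by 0.88 on the log2 scale, and KYAT3, a related enzyme, rose by 0.45. TDO2, which opens the indole ring of tryptophan, rose by 0.47 from 160 counts to 221 over the samples (edgeR adjusted p = 0.0334), but was not past the threshold with DESeq2, without vehicle replicate 2 or without SCH replicate 2. KYNU (0.12) and AFMID (-0.12) were not past it either, though KYNU passed it with library size only (0.22) and without SCH replicate 1 (0.21). Without SCH replicate 2 KYNU was at 0.050, and without SCH replicate 3 AFMID was at -0.073 (-0.020 with library size only).

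**Figure D3:**
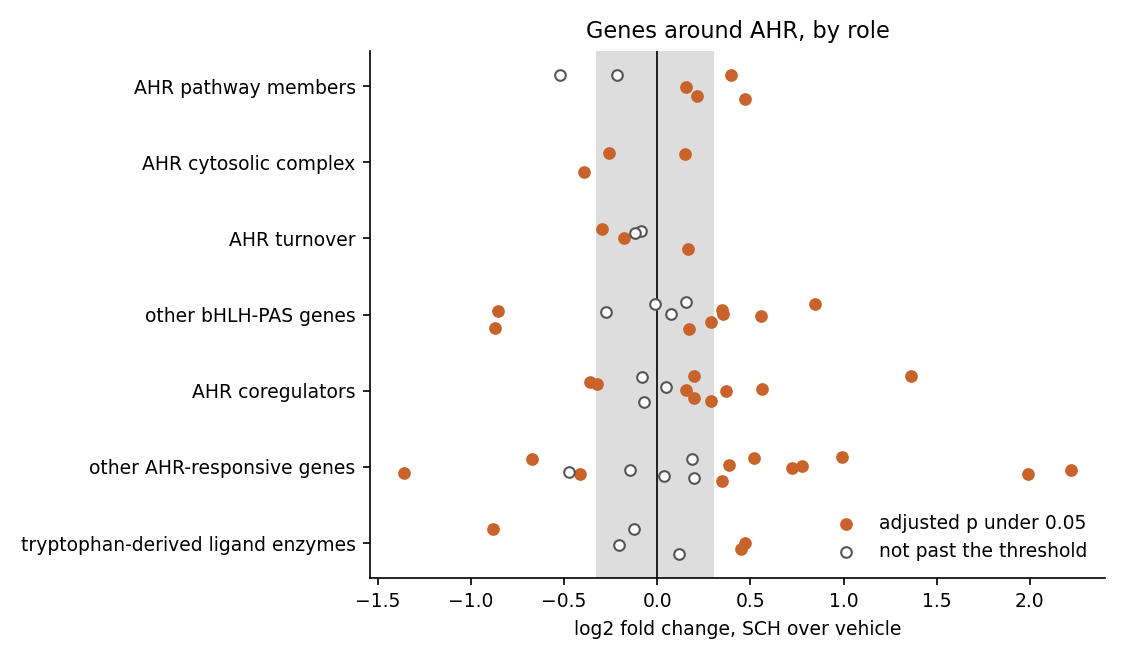
Log2 fold change (horizontal axis, SCH over vehicle) of every tested gene of the AHR pathway and of the 6 lists around it, 1 point per gene with vertical scatter only for legibility. Orange points had an adjusted p under 0.05, open points did not, and the grey band holds the middle of all tested genes from -0.32 to 0.30. The AHR pathway genes stay between -0.52 and 0.47, while MMP1 and NEDD9 reach 1.99 and 2.22.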

How the data were processed

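For each of the 6 samples the deposited values are unnormalized gene counts and, from the authors, FPKM. The submitters' processing notes list HISAT2 2.0.5, featureCounts 1.5.0-p3 and GRCh38, and the counting options are not given in the sources used here. Within a sample the FPKM was the count divided by gene length and by the total, then multiplied by a scale. This scale was 0.995 to 1.008 in the vehicle-treated samples and 0.937 to 0.941 in the SCH-treated samples. Comparisons of FPKM between the groups thus include this difference. The counts went into edgeR 4.0.16 under R 4.3.3 (filterByExpr, TMM, quasi-likelihood test without covariates, Benjamini-Hochberg over 14736 genes, threshold 0.05). Standard errors came from the size of the log2 fold change over √F. Alternatives used other normalizations and filters, DESeq2 1.42.0, limma 3.58.1 on log2(FPKM + 1) and log2(FPKM + 0.1), a block for the replicate number, and each sample left out. All gene identifiers matched GENCODE release 29. Tables were made with Python 3.11.15, and the fit was tested on simulated data. The genes and lists were chosen with earlier results of these data known. Named from each list were up to 5 changed genes with the smallest p and up to 2 unchanged genes whose mean count reached 100. Genes overlapping or most similar to the AHR pathway genes are also named. NQO1 was named outside this rule, after its values were seen, and was not followed under the alternatives. Within each group no library copied another, since the chi-square per degree of freedom between counts was at least 2.12. Pairs across the groups were not checked in this way. A gene of the cytosolic complex is not reported here.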

Additional observations from a re-analysis of the deposited data

How the results depend on the processing

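Over the 15 alternatives the 6 AHR pathway genes kept their direction in all 90 values, and 86 also kept their side of the threshold. The exceptions were TIPARP with upper quartile normalization (0.12) and without SCH replicate 3 (0.14), CYP1A1 with upper quartile normalization (-0.25) and AHRR without SCH replicate 1 (-0.74). Without 1 sample, log2 fold changes lay from 0.18 to 0.26 for AHR, 0.45 to 0.51 for ARNT, 0.34 to 0.48 for CYP1B1, 0.14 to 0.19 for TIPARP, -0.25 to -0.16 for CYP1A1 and -0.74 to -0.32 for AHRR, and 3 to 5 of the 6 genes were changed. Upper quartile normalization left the count at 4, with CYP1A1 in place of TIPARP. Of 34 genes named from the lists by the stated rule, NQO1 not among them, 21 kept direction and call throughout. Another 5, none of them past the threshold in the analysis above, changed direction. These were DDB1 (0.017) and NCOR1 (0.021) with library size only, MED1 (-0.0050) without vehicle replicate 1 (-0.0050 to 0.090 without 1 sample), EREG (-0.0074) without vehicle replicate 2 (-0.0074 to 0.10 without 1 sample), and NCOA2 with library size only (0.090), without the filter (0.0047), with DESeq2 (3.34e-04) and without 1 sample (-0.10 to 0.057). With library size only PTGES3 (-0.15), TBL3 (-0.19), HSP90AA1 (0.25) and RBX1 (0.27) kept their calls with a changed size, as did NPAS2 (-0.54) and TDO2 (0.18) on log2(FPKM + 1). The cause was not tested. The replicate numbers gave no sign of pairing between the groups. The correlations of deviations between samples of the same number were 0.139, -0.056 and 0.118, within the range from -0.238 to 0.161 for unlike numbers. With so few samples this check cannot settle whether the cultures were paired. With the number as a block, 8705 genes changed in place of 8650, and the same 4 AHR pathway genes rose. Depth limits AHRR above all, with 18 to 38 counts per sample.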
